A study of Mus musculus with 2 samples.

Results

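The mitochondrial ribosomal protein genes are the nuclear genes whose symbols begin with Mrpl, for proteins of the large subunit, or Mrps, for proteins of the small subunit, followed by a digit. In the GENCODE M1 annotation of the mouse genome (NCBI37/mm9), 77 of 22367 protein-coding genes fit this rule, 47 of them Mrpl and 30 Mrps genes. The rule used gene names alone and no measured value, though it was set with earlier results of these data known. The genes were searched for R-loop peaks of primary neural stem/progenitor cells (NSPCs) from C57BL/6 mice, isolated at postnatal day 7 and mapped by DNA:RNA immunoprecipitation with sequencing (DRIP-seq). In this assay, genomic DNA is cut with restriction enzymes, RNA:DNA hybrids are captured with the S9.6 antibody, and the captured DNA is sequenced. The study's methods state that the cells had received 0.5 µM aphidicolin for 48 h, an inhibitor of replicative DNA polymerases that causes mild replication stress, while the sample labels name no treatment. The deposited result is 1 list of 22132 peaks with a chromosome, a start and an end for each, so the number of reads behind a peak is unknown, no value below has a replicate error, and no test was run.

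Mitochondria carry their own ribosome, which translates the few proteins encoded by mitochondrial DNA, all of them parts of the respiratory chain or of the ATP synthase. Its RNAs come from mitochondrial DNA, but its proteins are encoded in the nucleus, made in the cytoplasm and imported. Some of these proteins have a counterpart in the bacterial ribosome and others exist only in mitochondria. An R-loop is a stretch in which RNA pairs with the template DNA strand and leaves the other strand single, and R-loops are known to form during transcription, above all where the displaced strand is rich in G, at CpG island promoters and near the ends of genes.

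Of the 77 mitochondrial ribosomal protein genes, 43 (55.8%) overlapped at least 1 R-loop peak by at least 1 bp, compared to 39.6% of all protein-coding genes. The transcription start site (TSS), here the first base of the annotated gene, lay in a peak in 18 genes (23.4%), compared to 14.9% of all protein-coding genes. The transcription end site (TES), the last base of the gene, lay in a peak in 22 genes (28.6%), compared to 10.9%. At least 2 peaks were found in 12 genes (15.6%), compared to 18% of all protein-coding genes. Thus the family exceeded the genome-wide share for a peak anywhere and at either end, most at the TES, but not for multiple peaks. None of these shares was matched for gene length. In bases, 10.7% of the summed gene length lay in peaks, compared to 3.81% for all protein-coding genes. Long genes weigh most in such sums, and this share was not set beside that of genes of the same length.

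These genes were short, with a median length of 7.65 kb compared to 15.4 kb for all protein-coding genes, and longer genes had a peak more often. The family was therefore set beside other protein-coding genes of the same length and GC content, sorted into 10 strata of each, with GC content taken within 2 kb of the TSS and each stratum weighted by its number of family members. In these strata, which held 10420 other genes, 32.8% had a peak, 14.1% had their TSS in a peak and 12.4% had their TES in a peak. All 3 shares of the family were higher. At least 2 peaks were found in 8.48% of the other genes in these strata, compared to 15.6% of the family. However, the promoters of the family were rich in CpG dinucleotides, which GC content over 4 kb does not capture well. The ratio of observed to expected CpG within 500 bp of the TSS had a median of 0.722 in the family and 0.549 in all protein-coding genes, and it was at least 0.6 in 67 members (87.0%) compared to 45.6% of all protein-coding genes. When genes were sorted by length and this CpG ratio instead, a comparison chosen after seeing the data, the shares among other genes were 50.7% for any peak, 26.1% for the TSS and 21.1% for the TES. The family's share minus this share was 5.14 percentage points for any peak, 7.46 for the TES and -2.76 for the TSS. The excess of the family at its start sites was thus not seen beside genes with promoters of like CpG content. For at least 2 peaks, the share among other genes in these strata was 15.5%, close to the 15.6% of the family.

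**Figure D1:**
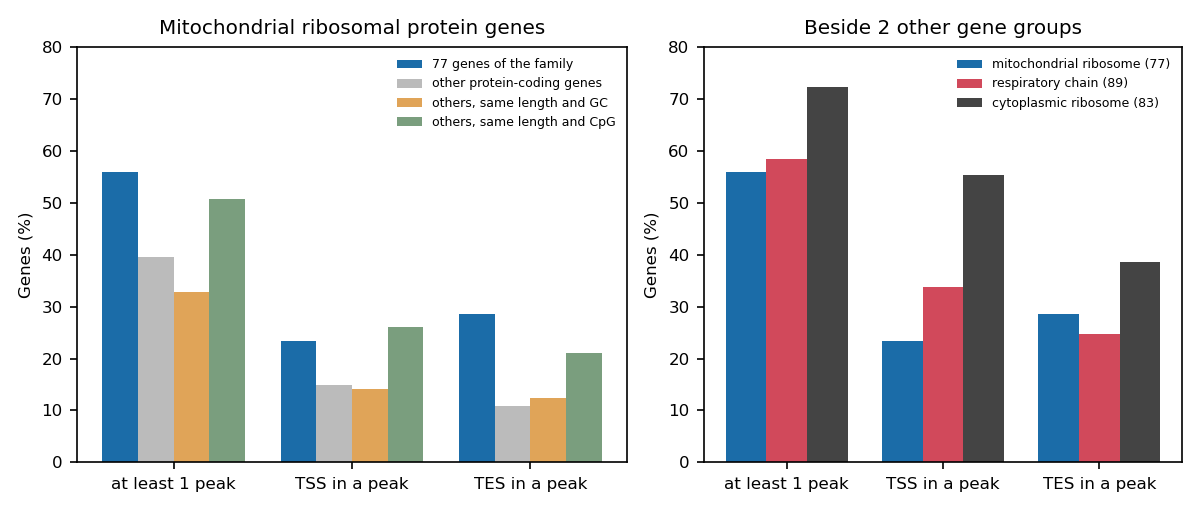
Left, percentage of genes with a peak, with the TSS in a peak and with the TES in a peak for the 77 family members, for other protein-coding genes, and for other genes in the same strata of length and GC content or of length and CpG ratio. Right, the same percentages in 3 gene groups, with 72.3% of cytoplasmic ribosomal protein genes and 55.8% of mitochondrial ones holding a peak.

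The family was also set beside 2 related gene groups, taken by symbol, as plotted in the bars by gene group. Cytoplasmic ribosomal protein genes, which encode the ribosome of the cytosol, had a peak in 60 of 83 genes (72.3%), with the TSS in a peak in 55.4% and the TES in 38.6%. Nuclear genes of the respiratory chain, here with those of the ATP synthase, whose products work beside the proteins made by the mitochondrial ribosome, had a peak in 52 of 89 genes (58.4%), with the TSS in a peak in 33.7% and the TES in 24.7%. Among the 3 groups, mitochondrial ribosomal protein genes had the lowest share at the TSS. They were also the group in which the TES share exceeded the TSS share. Median gene lengths were 3.24 kb for the cytoplasmic group and 7.49 kb for the respiratory chain, so the latter was close to the family in length, and in CpG ratio too, with a median of 0.725. The cytoplasmic group had a higher median CpG ratio, 0.807. Matched to each group by length and CpG ratio, other genes had TSS shares of 32.2% (cytoplasmic), 24.9% (respiratory chain) and 26.1% (family). These are differences between groups of genes in 1 peak list, and they were not tested.

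Within the family, the small subunit had a peak in 20 of 30 genes (66.7%) and the large subunit in 23 of 47 (48.9%), compared to 39.6% of all protein-coding genes. Median gene length was 8.80 kb in the small and 6.32 kb in the large subunit. Genes with a bacterial-type name, up to Mrpl36 and Mrps21, had a peak in 23 of 44 cases (52.3%), and the mitochondria-specific ones in 20 of 33 (60.6%). In the small subunit, 9 of 16 bacterial-type genes and 2 of 14 mitochondria-specific genes had their TES in a peak, whereas in the large subunit it was 5 of 28 bacterial-type and 6 of 19 mitochondria-specific genes, so the order of the classes was not shared by the subunits. Over all protein-coding genes the share was 10.9%, and differences between these small classes were not tested. The symbols do not follow structure in every case, since the Mrps18a protein is now placed in the large subunit and the Mrps36 protein in a dehydrogenase complex, and both genes had 1 peak. Mrps36-ps1, which carries a pseudogene symbol although it is annotated as protein-coding, had none.

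By length, peaks were found in 14 of 28 members under 5 kb (50.0%), where 15.9% of all protein-coding genes of that length had a peak. From 5 to 10 kb, 13 of 24 members (54.2%) had a peak, compared to 34.5% of all protein-coding genes. From 10 to 20 kb it was 10 of 14 members (71.4%), compared to 42.4%. From 20 to 200 kb it was 6 of 11 members (54.5%), compared to 53.0%. The share in the family was thus above the background in the shorter classes and close to it among the longest genes. This background was not matched for CpG ratio. Among genes of any length with a ratio of at least 0.6, 38 of 67 members (56.7%) had a peak, compared to 60.7% of all such protein-coding genes. By chromosome, all members had a peak on chromosomes 7 (6 of 6), 16 (3 of 3), 8 and 14 (2 of 2 each), where 36.4%, 43.5%, 46.5% and 33.2% of all protein-coding genes had a peak. No member had a peak on chromosomes 1 (0 of 5), 10 (0 of 2) and 15 (0 of 1), where the shares of all protein-coding genes were 39.6%, 39.1% and 42.4%.

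The 43 genes with a peak held 63 peaks, none of which touched 2 members. A total of 31 genes held 1 peak, 7 held 2, 3 held 3, 1 held 4 and 1 held 5. Of the 43 genes, 6 had both ends in a peak, 12 had only the TSS, 16 had only the TES, and 9 had peaks inside the gene that reached neither end. Both ends lay in a peak in 7.79% of all members, compared to 4.27% of other protein-coding genes. The share was 5.28% in the strata of length and GC content and 10.1% in those of length and CpG ratio. By midpoint, 30 peaks lay in an intron, 14 in an exon and 19 outside the gene. The peaks had a median width of 2.37 kb, compared to 1.68 kb for all peaks over protein-coding genes, and 4 of them (6.35%) were at least 10 kb wide, compared to 2.53%. The median share of a gene covered was 26.5% among the members with a peak, compared to 10.4% for all protein-coding genes with a peak. Gene length and peak width differ between these sets, and their part in the covered share was not tested. In 13 members, peaks covered at least 50% of the gene.

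**Figure D2:**
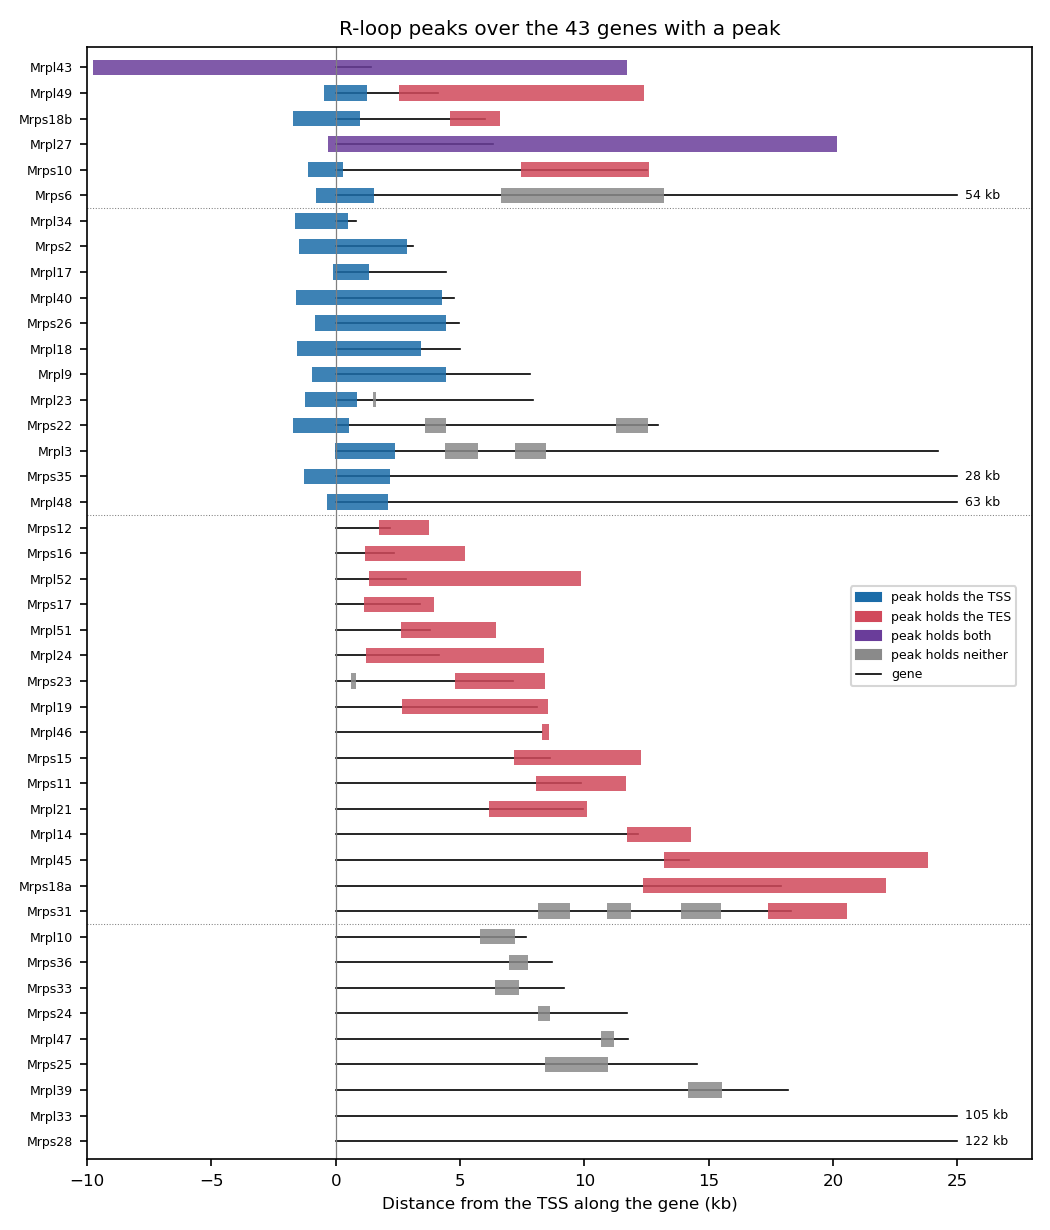
Peaks (bars) over the 43 genes with a peak (lines), aligned at the TSS and drawn in the direction of transcription, with distance in kb. Dotted lines part genes with both ends, only the TSS, only the TES or neither end in a peak, genes longer than 25 kb are cut there with their length at the right, and 9 peaks beyond 25 kb are not drawn.

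The map of peaks along the genes shows 2 forms of coverage at the 5′ end. In 13 of the 18 peaks over a TSS, the peak reached further downstream than upstream, with a median reach of 1.18 kb upstream and 2.14 kb downstream. Mrps2 (chr2:28323586-28326698, plus strand), the counterpart of the bacterial S2 protein, was covered over 92.3% of its length by 1 peak that began 1.48 kb upstream of the TSS. Mrpl40 (chr16:18872111-18876860, minus strand), a mitochondria-specific protein of the large subunit, was covered over 90.0% in the same manner. Mrps26 (chr2:130389478-130394431, plus strand), a mitochondria-specific protein of the small subunit, was covered over 89.2%. In these 3 genes the peak spanned the promoter and most of the gene and ended before the TES. Coverage was 68.8% in Mrpl18 and 56.8% in Mrpl9, which are bacterial-type proteins of the large subunit, and 57.1% in Mrpl34, another bacterial-type gene of only 0.827 kb.

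In the second form, a peak was restricted to the first part of the gene. Mrpl3 (chr9:104955569-104979796, plus strand) had a TSS peak that began 24 bp upstream of the TSS and ran 2.39 kb into the gene, followed by peaks that began at 4.38 and 7.20 kb, the first in an intron and the second over an intron and 162 bp of exon. Mrps22 (chr9:98489152-98502098, minus strand), a mitochondria-specific small subunit gene linked to a human mitochondrial disease, had a TSS peak that reached 1.72 kb upstream and 0.550 kb into the gene, and further peaks at 3.60 and 11.3 kb. Mrpl48 (chr7:107694265-107756811, minus strand) had a peak of 2.45 kb at the TSS and 1 of 0.520 kb near the other end, so that 4.19% of its 62.5 kb was covered. In Mrps35, 9.78% of 28.1 kb was covered, by a peak of 3.48 kb at the TSS and 1 of 0.564 kb close to the TES. Mrpl23, whose bacterial counterpart lines the exit of the peptide tunnel, had a TSS peak of 2.09 kb, and 1.49 kb downstream of its TSS began the narrowest peak of the family with 0.146 kb. Mrpl17 had a TSS peak of 1.44 kb that covered 29.9% of the gene. Mrps10, the counterpart of the bacterial S10 protein, had a TSS peak of 1.40 kb with 280 bp of it in the gene, and a further peak of 5.16 kb over its TES.

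Of the 18 TSS peaks, 9 also held the TSS of another protein-coding gene, which is 50.0% compared to 25.8% of all protein-coding genes with their TSS in a peak. In 8 of these 9 the partner was transcribed from the other strand. Mrpl40 shared its peak with Hira, a histone chaperone gene, Mrpl49 with Fau, which encodes a ubiquitin-like protein fused to a ribosomal protein of the cytosol, and Mrps18b with Ppp1r10, which encodes a regulator of protein phosphatase PP1. In Mrpl18 the partner was Tcp1, a gene of the cytosolic chaperonin, in Mrpl48 it was Rab6, a GTPase gene of the Golgi, in Mrpl34 it was Abhd8, and in Mrpl27 it was Eme1, a gene for a subunit of a structure-specific nuclease. In Mrpl43 the partners were Peo1, the gene for the helicase of mitochondrial DNA, and Lzts2. Mrps6 was the exception, with Slc5a3, the gene for a myo-inositol transporter, which starts in the same peak and on the same strand. An R-loop peak carries no strand in this list, so a peak over such a pair of starts cannot be assigned to either gene.

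The strand with the coding sequence was searched for its most G-rich run of 60 bases, that in which G outnumbered C the most. The search went from 1 kb upstream to 2 kb downstream of each TSS and left out untranslated regions. Because a peak carries no strand, which strand was displaced is unknown, and runs upstream of a TSS lie outside the annotated gene. The following 9 runs belong to the genes with the highest excess among the 18 with a TSS in a peak, the last 2 of them tied, shown because G-rich displaced strands are the known sequence feature of R-loops. Capitals mark runs of at least 3 G.
Mrpl17 (chr7:112960141-112960200, minus strand, upstream of the gene): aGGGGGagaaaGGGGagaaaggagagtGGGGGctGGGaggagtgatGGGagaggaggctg
Mrps2 (chr2:28324482-28324541, plus strand, exon of a transcript without coding sequence): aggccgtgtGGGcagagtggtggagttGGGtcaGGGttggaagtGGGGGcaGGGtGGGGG
Mrpl9 (chr3:94248033-94248092, plus strand, intron): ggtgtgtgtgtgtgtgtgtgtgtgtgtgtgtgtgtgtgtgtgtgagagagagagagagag
Mrpl40 (chr16:18875835-18875894, minus strand, intron): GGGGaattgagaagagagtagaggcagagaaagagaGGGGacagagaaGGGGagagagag
Mrps26 (chr2:130390186-130390245, plus strand, intron): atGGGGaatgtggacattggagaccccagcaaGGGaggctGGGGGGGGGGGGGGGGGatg
Mrpl23 (chr7:149718518-149718577, plus strand, upstream of the gene): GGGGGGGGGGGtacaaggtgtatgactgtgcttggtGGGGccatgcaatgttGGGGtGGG
Mrpl48 (chr7:107755826-107755885, minus strand, intron): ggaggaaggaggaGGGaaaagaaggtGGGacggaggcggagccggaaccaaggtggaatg
Mrpl43 (chr19:45080695-45080754, minus strand, intron): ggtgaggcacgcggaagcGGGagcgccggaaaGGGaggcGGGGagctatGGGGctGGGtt
Mrps6 (chr16:92058860-92058919, plus strand, intron): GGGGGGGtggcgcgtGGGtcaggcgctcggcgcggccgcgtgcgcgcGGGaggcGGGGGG

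In these 9 runs, G exceeded C by 23 to 34 of 60 bases. The runs differ in kind: Mrpl17, Mrps2 and Mrpl23 hold several G blocks, Mrps26 holds a long uninterrupted block of G, Mrpl40 and Mrpl48 are purine-rich, and Mrpl9 holds a GT repeat with no run of 3 G. Of the 18 runs, 15 lay inside a peak, and that of Mrpl17 did not. Such runs were, however, not limited to genes with a peak. The median excess was 22.5 bases in the 18 genes with the TSS in a peak, 21 in the 25 with a peak elsewhere and 22 in the 34 without a peak. The following 4 genes, chosen after their values were seen, had no peak, and are shown for contrast.
Mrpl44 (chr1:79771788-79771847, plus strand, upstream of the gene): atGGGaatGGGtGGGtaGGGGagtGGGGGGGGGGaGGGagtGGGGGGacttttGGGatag
Mrps7 (chr11:115465065-115465124, plus strand, upstream of the gene): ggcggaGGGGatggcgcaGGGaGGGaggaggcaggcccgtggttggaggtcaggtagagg
Mrpl38 (chr11:116000185-116000244, minus strand, upstream of the gene): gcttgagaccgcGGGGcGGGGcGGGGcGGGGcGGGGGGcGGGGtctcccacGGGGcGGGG
Mrps14 (chr1:162125655-162125714, plus strand, intron): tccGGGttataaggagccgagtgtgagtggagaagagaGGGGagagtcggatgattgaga

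The run of Mrpl44, with an excess of 37 bases, had the highest value of the whole family, and that of Mrps7 was as rich as that of Mrps26. Mrps14 had the highest GC skew of all 77 genes. GC skew, (G - C)/(G + C) of the non-template strand, was taken here over the first 1 kb of the gene. It was 0.251 in Mrps14, compared to 0.232 in Mrpl23, the highest value among genes with the TSS in a peak. The median skew was 0.107 in genes with the TSS in a peak, 0.0642 in those with a peak elsewhere and 0.0453 in those without a peak, and the ranges overlapped widely, from -0.0258 to 0.232, from -0.127 to 0.198 and from -0.0658 to 0.251. Among all protein-coding genes, the median skew was 0.0649 with the TSS in a peak and 0.0345 with the TSS outside.

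**Figure D3:**
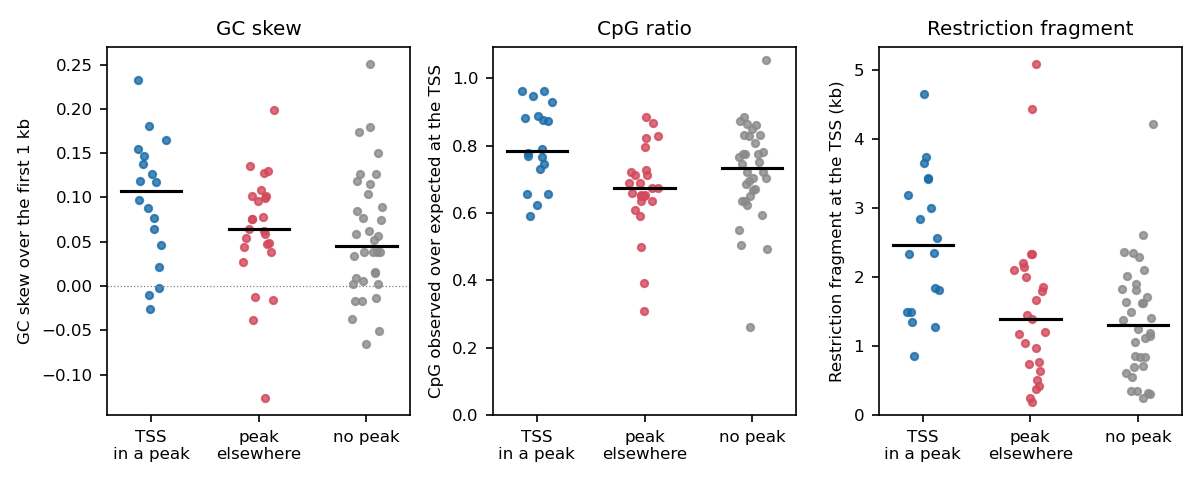
GC skew over the first 1 kb, ratio of observed to expected CpG within 500 bp of the TSS, and length in kb of the restriction fragment that holds the TSS for the 18 genes with the TSS in a peak, the 25 with a peak elsewhere and the 34 without a peak. Each point is a gene and each line a median, and the fragment medians were 2.46, 1.39 and 1.31 kb.

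The plot of sequence features also shows the restriction fragment that held each TSS after digestion with the 5 enzymes BsrGI, EcoRI, HindIII, SspI and XbaI. Its median length was 2.46 kb in genes with the TSS in a peak, 1.39 kb in those with a peak elsewhere and 1.31 kb in those without a peak. The same order was seen in all protein-coding genes, with 2.39 kb for a TSS in a peak and 1.39 kb for a TSS outside. Fragment length moved together with the presence of a peak at the TSS, and its part in the result was not tested. Of the 126 peak edges in the family, 24.6% lay within 100 bp of a site of these enzymes, compared to 28.3% of the edges of all peaks. The CpG ratio had medians of 0.784, 0.673 and 0.734 in the same 3 classes, so that genes without a peak did not lack CpG-rich promoters.

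The promoters, from 250 bp upstream to 50 bp downstream of the TSS, were searched on both strands for the cores of motifs bound by transcription factors that are known to act on nuclear genes of mitochondrial function. The ETS core CCGGAAGT, which GABP binds, was found in 10 promoters (13.0%), compared to 4.69% of all protein-coding promoters and 8.49% of those with a CpG ratio of at least 0.6. Of these 10 genes, 7 had the TSS in a peak, namely Mrpl3, Mrpl18, Mrpl27, Mrpl43, Mrps22, Mrps26 and Mrps35, compared to 11 of the 67 genes without this core (16.4%). Among all CpG-rich promoters, the TSS lay in a peak in 27.3% with and 25.9% without the core, so no difference of this size was seen over all such genes. The YY1 core AAGATGGC was found in 12 promoters (15.6%), compared to 3.30% of all promoters and 4.76% of the CpG-rich ones. Of the 12 genes, 3 had the TSS in a peak (25%), compared to 23.1% of the members without the core and 30.2% of the CpG-rich genes with it. The NRF1 core CGCATGCG was found in 5 promoters (6.49%), compared to 2.23% of all promoters and 4.25% of the CpG-rich ones. Of the 5 genes, 2 had the TSS in a peak, compared to 22.6% of the CpG-rich genes with this core. The 3 searches overlap in 2 promoters, with the YY1 core beside the NRF1 core in Mrpl32 and beside the ETS core in Mrps27, and neither gene had a peak.

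The following windows show the cores in capitals for all promoters in which the window avoids untranslated regions. The window of Mrps35 lies in a peak and the others do not. Mrpl10 has a peak further inside the gene, and the other 4 genes have none.
Mrps35 (chr6:146991242-146991281, plus strand, ETS core read from the other strand): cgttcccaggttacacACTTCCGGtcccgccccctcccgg
Mrps27 (chr13:100114676-100114715, plus strand, ETS core read from the other strand): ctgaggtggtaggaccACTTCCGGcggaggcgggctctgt
Mrpl36 (chr13:73468411-73468450, plus strand, YY1 core read from the other strand): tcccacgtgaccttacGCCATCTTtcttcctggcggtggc
Mrpl22 (chr11:57985118-57985157, plus strand, NRF1 core): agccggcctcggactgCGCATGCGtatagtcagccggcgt
Mrpl10 (chr11:96902745-96902784, plus strand, NRF1 core): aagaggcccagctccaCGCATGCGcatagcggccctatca
Mrpl32 (chr13:14705367-14705406, minus strand, NRF1 core): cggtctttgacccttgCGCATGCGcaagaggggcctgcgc

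At the 3′ end, 22 genes had the TES in a peak, and 14 of these peaks reached further beyond the gene than into it. The median reach was 1.58 kb into the gene and 2.45 kb beyond it. When the position of peaks was traced along the genes, the share of members in a peak was highest at 0.6 to 0.9 kb before the TES, with 27 genes (35.1%). At 0.9 kb before the TES it was 11.8% for all protein-coding genes and 13.8% in the same strata of length and GC content. Positions were not traced in the strata of length and CpG ratio, where 21.1% of other genes had their TES in a peak. At 5 kb beyond the TES, the share in the family was 15.6%, compared to 7.93% of all protein-coding genes and 7.78% in the same strata of length and GC content. Around the TSS, the family had its highest share at 0 to 0.2 kb downstream with 18 genes (23.4%). From there it stayed above the level of other genes up to 5 kb downstream, and at 3 kb downstream 19.5% of the family but 7.81% of all protein-coding genes were in a peak. In the same strata of length and GC content, 10.2% of other genes were in a peak at 3 kb downstream. Since the genes are short, positions 3 kb downstream of the TSS are often close to the TES or beyond it.

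**Figure D4:**
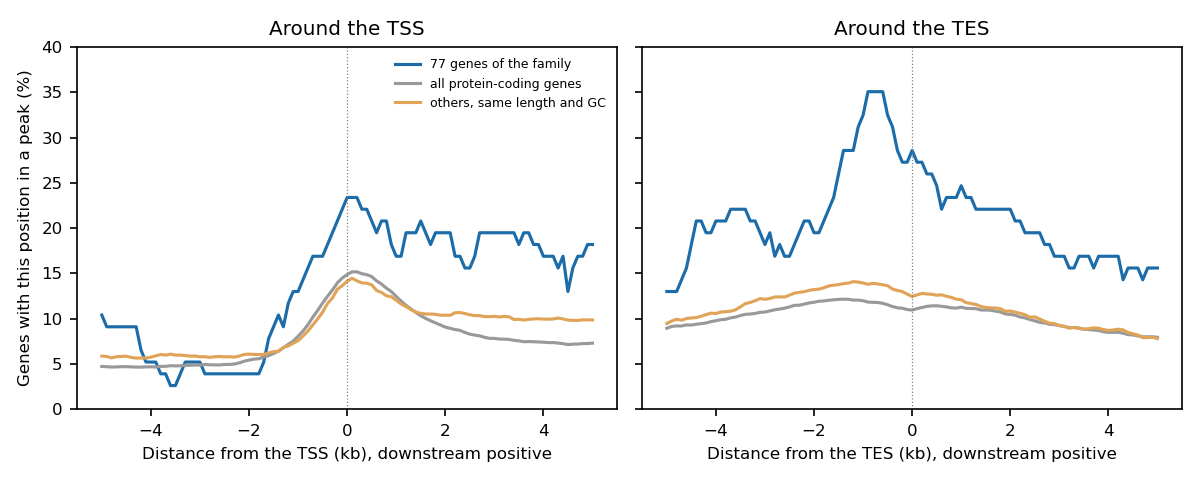
Percentage of genes with the given position in a peak from 5 kb before to 5 kb after the TSS (left) and the TES (right), in steps of 100 bp, for the 77 family members, all protein-coding genes and other genes in the same strata of length and GC content. The family reached 23.4% at the TSS and 35.1% at 0.6 to 0.9 kb before the TES.

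The widest peaks of the family lay at gene ends. Mrpl43 (chr19:45079504-45080932, minus strand), which is 1.43 kb long, lay wholly inside a peak of 21.5 kb that reached from 9.78 kb upstream to 11.7 kb downstream of its TSS. This peak also held Peo1 in full, the TSS of Lzts2 and the TES of Sema4g, a semaphorin gene. Mrpl27 (chr11:94515081-94521403, plus strand), whose bacterial counterpart lies near the peptidyl transferase centre, was wholly inside a peak of 20.4 kb that began 0.296 kb upstream of the TSS and went on past the end of Xylt2, a xylosyltransferase gene. The TES peak of Mrps6 was 11.8 kb wide with 1.57 kb of it in the gene. That of Mrpl45, whose protein anchors the ribosome to the inner membrane, was 10.6 kb wide with 0.994 kb in the gene and shared with Gpr179. The TES peak of Mrpl49 was 9.86 kb wide and held Syvn1, a ubiquitin ligase gene, in full. In each of these 5 peaks most of the peak lay outside the mitochondrial ribosomal protein gene.

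Of the 22 TES peaks, 12 also overlapped another protein-coding gene. In 7 (31.8%) the peak held the TES of another coding gene, compared to 40.1% of all protein-coding genes with the TES in a peak, and in 7 (31.8%) it held the TSS of another coding gene, compared to 23.3%. Mrps18b showed both arrangements of neighbours, with its start shared with Ppp1r10 and its end shared with the start of Atat1, a gene for an α-tubulin acetyltransferase. Mrpl46 was counted through 2 bp of a peak that lay otherwise beyond its TES, and was named after its value was seen. Over all 63 peaks, 24 overlapped another coding gene, and 17 of the 43 genes (39.5%) had no peak of their own, compared to 18.8% of all protein-coding genes with a peak. The median length was 8.30 kb in members with a peak and 27.4 kb in all protein-coding genes with a peak. These 2 shares were not matched for gene length or number of peaks.

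Mrps6 (chr16:92058515-92112472, plus strand), the counterpart of the bacterial S6 protein, held the most peaks. Its 5 peaks began 0.776 kb before and 6.63, 37.8, 41.6 and 52.4 kb after the TSS, with widths of 2.31, 6.57, 0.592, 0.639 and 11.8 kb, and covered 20.2% of 54.0 kb. The first 2 also lay over Slc5a3. Mrps31 (chr8:23521812-23540137, plus strand), a mitochondria-specific small subunit gene, held 4 peaks of 0.987 to 3.17 kb that began 8.12, 10.9, 13.9 and 17.4 kb after the TSS. The first 8.12 kb of the gene thus held no peak, and none of the 4 overlapped another coding gene. Mrpl33 (chr5:31899308-32004345, plus strand) held 3 peaks of 0.661 to 3.30 kb, and all of them lay in Rbks, a ribokinase gene on the other strand, the last over the starts of Rbks and Bre. The annotated 105 kb of Mrpl33 thus run through its neighbours, and none of these peaks can be assigned to it.

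The 5 longest members differed widely. Mrps28 (122 kb) held 1 intronic peak of 0.981 kb at 55.0 kb from the TSS, which covered 0.806% of the gene. Mrpl33 (105 kb) held 3 peaks and Mrpl48 (62.5 kb) 2, as described above. Mrps27 (70.8 kb), an RNA-binding small subunit protein, and Mrpl1 (57.2 kb), the counterpart of the bacterial L1 stalk protein, held none. Of the 5 longest members, Mrpl33 was the only one among the 5 with the most peaks.

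No peak was found in 34 members (44.2%). The gap to the nearest peak had a median of 16.4 kb, compared to 51.7 kb for all protein-coding genes without a peak. It was under 2 kb in 3 genes: 0.954 kb in Mrpl55, 1.78 kb in Mrps7, the counterpart of the bacterial S7 protein, and 1.89 kb in Mrpl41. In 23 genes the gap was over 10 kb and in 5 it was over 100 kb, the farthest being Mrps30 with 413 kb. Mrps9, the counterpart of the bacterial S9 protein, is 54.5 kb long, close to Mrps6 in length, and held 0 peaks. Its GC skew of 0.180 was above the median of genes with the TSS in a peak, but its CpG ratio of 0.504 was below every value among them, the lowest of which was 0.591. Within 100 kb to each side, genes with a peak had a median of 6 other peaks and those without had 3.5, among a median of 5 and 5.5 other coding genes.

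The start of another annotated gene of any type, on the other strand and within 1 kb upstream, was found for 18 members (23.4%), compared to 9.40% of all protein-coding genes and 17.0% of the CpG-rich ones. Of these 18, 6 had a peak (33.3%), compared to 37 of the other 59 members (62.7%). The order was the other way in all protein-coding genes, with 56.7% with and 37.8% without such a neighbour, and the shares were close in the CpG-rich ones, with 59.5% and 61.0%. When starts that overlap head to head were added, by counting 1 kb to either side, 31 members had such a neighbour and 16 of them had a peak (51.6%), compared to 58.7% of the other 46, so the contrast within the family depended on this limit. For this definition the shares were 57.3% and 36.5% in all protein-coding genes and 60.5% and 60.8% in the CpG-rich ones. The definition with both sides was chosen after seeing the data.

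The wider machinery of mitochondrial translation was described with 4 lists. Mitochondrial ribosomal proteins that carry other symbols had a peak in 3 of 7 genes, namely Dap3, Gadd45gip1 and Ict1. Translation factors had a peak in 5 of 9 genes, among them Tufm, the elongation factor that delivers tRNA, which was covered over 82.3% by a peak at its TES. Genes for ribosome assembly and rRNA modification had a peak in 9 of 18 genes and mitochondrial aminoacyl-tRNA synthetases in 9 of 17. In sum, 26 of 51 genes (51.0%) had a peak, compared to 39.6% of all protein-coding genes. The TSS lay in a peak in 5 genes (9.80%), compared to 14.9%, and the TES in 12 (23.5%), compared to 10.9%. Among cell type markers, a peak was found over 7 of 10 markers of neural stem/progenitor cells, including Sox2, Nes and Vim. Pax6, Fabp7 and Hes5 had none. Neuron markers had a peak in 0 of 3 annotated genes, with Map2 not annotated, and microglia markers in 1 of 4, Csf1r. A peak is no measure of expression, so these counts only describe the list.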

How the data were processed

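Per the study's methods and the sample labels, DRIP-seq libraries were made from restriction-digested, RNase A-treated DNA of primary NSPCs, with 3 DRIP reactions pooled per library and 9 reactions from 3 biological replicates. The authors' reads were trimmed (Trim Galore 0.6.6, per the submitters' processing notes) and mapped to mm9, duplicates were discarded, and peak calling used a Hidden Markov Model. How replicates were combined into the 1 deposited list, which holds positions in bp and no count or signal, is not given in the sources used here. The input library was not analysed here. Depth per sample is unknown.

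Peak positions were placed on mm9 and GENCODE M1, and an overlap counted from 1 bp. Shares in strata were computed over 10 strata of length and 10 of GC or CpG. With 1 list there was no test and no comparison between conditions. Named genes were all members with the TSS in a peak, the 5 with the most peaks, the 5 with the largest covered share, the 5 longest, those with the 5 widest peaks, those with a peak within 2 kb, Mrps9, and genes that share a peak or start with them. Other genes were named after their values were seen: Mrpl10, Mrpl22, Mrpl32, Mrpl36, Mrpl38, Mrpl44, Mrpl46, Mrps14, Mrps18a, Mrps30, Mrps36, Mrps36-ps1 and those named from the lists. The members and lists were chosen with earlier results of these data known. The overlap and strata steps were tested on simulated data. Scripts ran in Python 3.11.15 with matplotlib 3.10.9, scipy 1.17.1 and numpy 2.4.6. Alternatives were other peak limits, overlaps, gene limits, strata, end windows and limits for neighbours, autosomal members only, and the family without Mrps36-ps1.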

Additional observations from a re-analysis of the deposited data

How the results depend on the processing

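The counts of members with a peak (43), with the TSS (18) or TES (22) in a peak and of peaks (63), the share of bases covered (10.7%), the 3 differences to the same strata of length and GC content, and the 2 counts of neighbours were recomputed under the alternatives. Of 64 values, 61 differed from the main value by less than a factor of 1.5 or than the 95% binomial interval of the share. Some of these 61 could not change. All members are autosomal, so a limit to autosomes left the counts and covered share of the family as they were. Mrps36-ps1 held no peak, so leaving it out could not change the counts of members or peaks. The other 3 values came from choices made after seeing the data. The interval was computed over the members and served only as a yardstick. It is no replicate error, and a large change of a difference can fall within it. With CpG ratio in place of GC content, the difference for any peak moved from 23.0 to 5.14 percentage points and that for the TSS reversed from 9.25 to -2.76. The difference for the TES fell within the interval, from 16.1 to 7.46. The planned GC content within 500 bp also lowered the 3 differences, to 16.3 for any peak, 5.19 for the TSS and 12.0 for the TES, all within the intervals. With starts counted to either side, 31 rather than 18 members had a neighbouring start. With the peak midpoint or at least 50% of the peak required in the gene, 31 and 30 members had a peak. The difference for any peak then fell from 23.0 to 14.5 and 14.1 percentage points, both within the interval. No paired analysis was possible because 1 peak list was analysed and no test was made, and no replicate could be left out. Peaks without scores or depth could not be filtered by strength, so weak and strong peaks counted alike.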
